A study of Mus musculus with 768 samples.

Results

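The genes described here were 10 immediate early genes: Fos, Fosb, Junb, Egr1, Egr3, Egr4, Npas4, Arc, Homer1 and Dusp1. They were taken by name, not by level, from the 24489 genes counted in single nuclei of the untreated mouse striatum, and all 10 had a row. Immediate early genes are transcribed within minutes of synaptic input, without new protein synthesis, and their transcripts are short-lived, so that a nucleus holding them carries a trace of recent activity. Fos, Fosb and Junb code for subunits of the AP-1 transcription factor. Egr1, Egr3 and Egr4 are zinc finger factors of the EGR family, and Npas4 is a factor induced mainly by calcium entry. Arc acts in the removal of AMPA receptors from synapses, Homer1 codes for a postsynaptic scaffold with a short, activity-induced form, and Dusp1 is a phosphatase that switches off MAP kinases. In the striatum these genes are known for their induction in spiny projection neurons by dopamine and glutamate.

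Nuclei came from 768 wells on 2 plates of equal size, 1 nucleus to a well, all of C57BL/6 background. One plate held nuclei of genotype Oprm1-Cre:H2BG, in which Cre is made under the mu opioid receptor gene and which the study used to reach neurons of the striatal patches. The other held nuclei of genotype Slc32a1-Cre:H2BG, in which Cre is made under the vesicular GABA transporter gene, a mark of GABAergic neurons in general. Both groups carried a Cre and the H2BG reporter, both were untreated, and no nuclei without these alleles were used here. No source used here gives the number, age or pooling of the animals, and each plate was therefore 1 sample. No test between plates or classes was possible, and intervals cover counting error only. The plates differ in genotype, in animals and, by the transcripts named next, in sex. These cannot be told apart in a difference between the plates. Xist, the transcript of the inactive X chromosome, had reads in 72.7% of Slc32a1-Cre nuclei and 1.97% of Oprm1-Cre nuclei, while the Y-linked Eif2s3y had reads in 73.2% of Oprm1-Cre nuclei and in 0 of the Slc32a1-Cre nuclei, which allows a share of up to 0.787%.

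After wells with few reads were left out, 736 nuclei remained, of which 51.8% were from the Slc32a1-Cre plate, with medians of 169398 (Oprm1-Cre) and 175337 (Slc32a1-Cre) reads. Spiny projection neurons are named by their dopamine receptor: D1 cells carry Drd1 and Tac1, D2 cells Drd2, Adora2a and Penk. By such markers 687 nuclei were spiny projection-like (SPN-like). D1-like nuclei numbered 490 over both plates and made up 83.7% of Oprm1-Cre and 50.7% of Slc32a1-Cre nuclei. D2-like nuclei numbered 170, only 23 of them from the Oprm1-Cre plate, and 11 and 16 SPN-like nuclei were undecided. Interneuron-like nuclei numbered 15 and 18, and 9 and 7 had no class. The 7 D2 markers summed to 189.1 and 174.5 counts per 1000000 reads (CPM) among D1-like nuclei. In D2-like nuclei they summed to 19093 and 21512 CPM. The classes were set by such markers, so these sums describe the classes and are no check of them. Interneuron-like nuclei still held 3697 and 2098 CPM of the 10 SPN markers, against 13936 and 13166 CPM in the D1-like ones. The 10 immediate early genes were kept out of the genes used for clustering.

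Promoters were available for 7 of the 10 genes in the RefSeq table (GRCm38.p6): Fos, Fosb, Junb, Egr4, Npas4, Homer1 and Dusp1. Transcription of many immediate early genes can start when phosphorylated CREB acts at a cAMP response element, TGACGTCA, or at its first part, TGACG. Within the 250 bases before the start, read on both strands, TGACG was found in 7 of the 7 members with a promoter and in 17.8% of 32851 promoters of the same length. TGACGTCA, which contains TGACG on both strands, was found in Dusp1 alone of the 7 and in 1.55% of promoters. The AP-1 motif TGANTCA was found in none of the 7 (6.75% of promoters), and the EGR motif GCGGGGGCG in Fosb alone (2.57% of promoters). The CArG box, the motif of serum response factor, was found in none of the 7 within this window (1.47% of promoters). A match to these letters is a description of the sequence and does not show that a factor binds there. The 4 promoters below are those of a gene detected in few nuclei (Fos), the gene found with it most above expectation (Npas4), the gene that was not lower in interneuron-like nuclei (Dusp1) and the most widely detected gene (Homer1). Each runs 5′ to 3′ on the strand of its gene up to the base before the transcription start, with TGACG and its reverse complement in capitals.
Fos: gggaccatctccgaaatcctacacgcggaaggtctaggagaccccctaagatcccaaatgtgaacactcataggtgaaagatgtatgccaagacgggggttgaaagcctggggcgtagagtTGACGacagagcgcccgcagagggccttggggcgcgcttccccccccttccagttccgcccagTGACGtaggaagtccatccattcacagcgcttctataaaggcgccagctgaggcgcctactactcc
Npas4: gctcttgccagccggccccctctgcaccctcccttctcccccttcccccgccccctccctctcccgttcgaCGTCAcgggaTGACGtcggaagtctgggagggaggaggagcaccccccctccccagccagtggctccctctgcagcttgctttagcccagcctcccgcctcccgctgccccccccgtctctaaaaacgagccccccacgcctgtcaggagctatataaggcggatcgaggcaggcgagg
Dusp1: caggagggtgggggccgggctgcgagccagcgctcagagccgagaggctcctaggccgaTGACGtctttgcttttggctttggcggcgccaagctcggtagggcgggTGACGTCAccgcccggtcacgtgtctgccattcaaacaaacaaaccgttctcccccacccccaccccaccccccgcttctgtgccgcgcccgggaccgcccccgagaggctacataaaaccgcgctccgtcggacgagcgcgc
Homer1: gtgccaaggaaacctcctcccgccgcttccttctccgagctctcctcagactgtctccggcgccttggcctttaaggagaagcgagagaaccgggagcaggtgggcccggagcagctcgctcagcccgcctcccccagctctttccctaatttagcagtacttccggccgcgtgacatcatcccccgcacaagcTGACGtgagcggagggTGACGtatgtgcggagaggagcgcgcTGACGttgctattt
In GRCm38 these lie at chr12:85473640-85473889 (plus strand), chr19:4989972-4990221 (minus strand), chr17:26508473-26508722 (minus strand) and chr13:93303507-93303756 (plus strand). Fos had 2 matches, the nearer from position -66 to -62 before the start, and a TATAAA from -33 to -28. Npas4 had a pair of matches, 1 on each strand, from -179 to -175 and from -169 to -165. In Dusp1 the full TGACGTCA stood from -143 to -136, and Homer1 had 3 matches, the nearest from -14 to -10. In GENCODE vM21 the Fos gene spans chr12:85473890-85477273, Npas4 chr19:4984355-4990316, Dusp1 chr17:26505590-26562128 and Homer1 chr13:93299635-93405129. The RefSeq starts used for Npas4, Dusp1 and Homer1 lie inside those spans, since GENCODE has transcripts that begin further upstream.

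Egr1 and Homer1 were present in most SPN-like nuclei of both plates, Junb and Egr3 in about 3 in 10, and Fos and Fosb in few. To compare shares at 1 depth, each nucleus was thinned at random to 50000 reads, and the 4 Oprm1-Cre nuclei and 1 Slc32a1-Cre nucleus with fewer were left out. Homer1 then had a read in 83.2% of Oprm1-Cre and 71.5% of Slc32a1-Cre SPN-like nuclei, the order of plates kept in the pairs of values that follow, and Egr1 in 67.1% and 61.97%. Egr3 had a read in 28.7% and 31.3%, Junb in 27.7% and 33.2%, Egr4 in 23.2% and 18.03%, and Arc in 16.2% and 18.03%. Dusp1 followed with 11.3% and 21.97%, and Npas4 with 9.15% and 11.3%. Fosb had a read in 2.74% and 5.92% and Fos in 0.61% and 5.63%. Without thinning the shares of most genes were higher, for example 77.6% and 71.9% for Egr1, and Fos was at 0.604% and 8.43%.

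**Figure D1:**
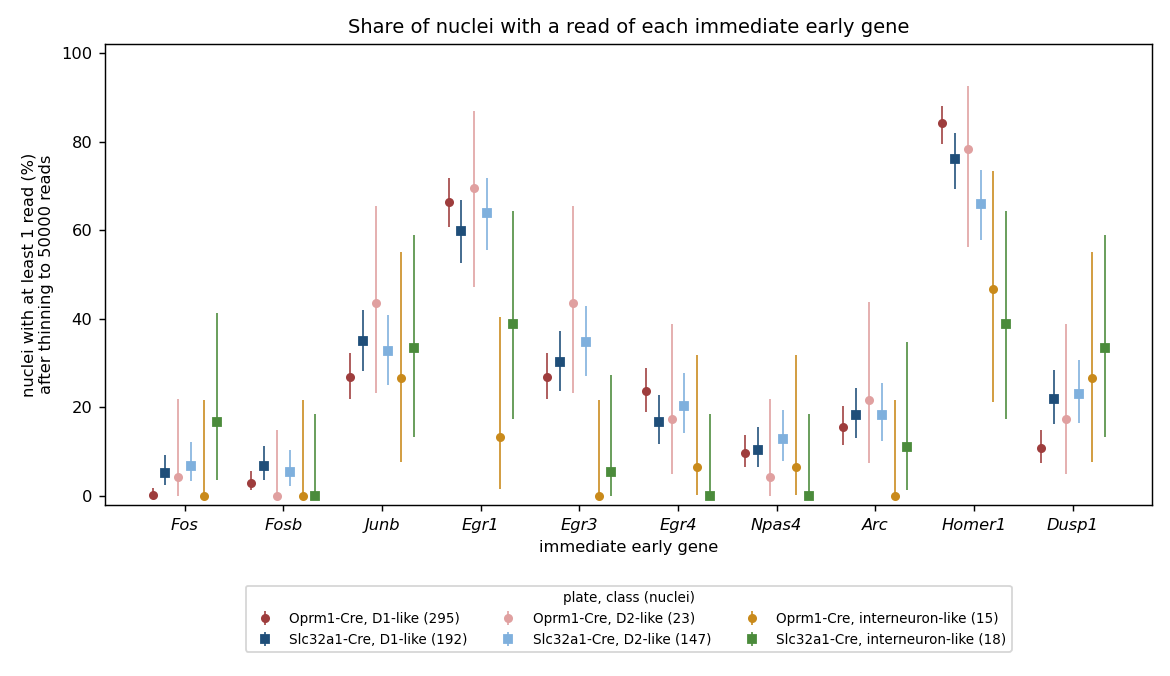
Share of nuclei with at least 1 read of each immediate early gene (y axis, percent, after thinning to 50000 reads) by plate and class; bars are exact Clopper-Pearson 95% intervals. Homer1 and Egr1 stand highest in D1-like and D2-like nuclei, Fos is at 0.339% in Oprm1-Cre D1-like nuclei, and Egr1, Egr3 and Homer1 are lower in interneuron-like nuclei.

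Reads of a gene in nuclei that should lack it give a background for such shares. Npy and Sst, neuropeptides of interneurons that projection neurons should lack, had a read in 6.40% and 16.8% of the thinned Oprm1-Cre SPN-like nuclei and in 4.79% and 22.8% of the Slc32a1-Cre ones. Summed over SPN-like nuclei they amounted to 3.71 to 11.4 CPM, against 4814 to 8241 CPM in interneuron-like nuclei. Trh and Kit, at 333.1 to 2086 CPM in interneuron-like nuclei, had a read in at most 1.22% of thinned SPN-like nuclei. The highest single value of an immediate early gene in SPN-like nuclei was 2849 CPM, for Homer1 in 1 Oprm1-Cre nucleus. Where a nucleus had Sst reads the median was 28.6 and 22.9 CPM, and for Npy it was 40.9 and 8.43 CPM, with single nuclei up to 359.1 and 416 CPM. Medians where a read was present were 36.9 and 78.9 CPM for Fosb, 47.2 and 81.8 CPM for Junb, 53.8 and 43.3 CPM for Egr4, 57.02 and 221.4 CPM for Dusp1, 58.8 and 119.3 CPM for Npas4 and 157.5 and 182.3 CPM for Arc. The Oprm1-Cre Fosb median was thus under that of Npy, and those of Junb, Egr4, Dusp1 and Npas4 were not far above it. The shares of Fos, Fosb, Npas4 and Arc on both plates, of Dusp1 on both plates and of Slc32a1-Cre Egr4 were at or below the Sst share of the same plate. They are therefore given with their levels and not read as a share of expressing cells.

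Set on gene length, the order of levels was alike in part between the plates. Egr1 led with 55.7 CPM per kb of exon in Oprm1-Cre and 57.6 in Slc32a1-Cre SPN-like nuclei, and Homer1 followed with 35.7 and 26.4. In Oprm1-Cre nuclei Egr3 (14.9), Arc (13.6), Junb (11.3), Egr4 (10.03), Dusp1 (5.91) and Npas4 (3.18) came next in CPM per kb, and Fos (0.402) and Fosb (0.356) were last with overlapping counting intervals. In Slc32a1-Cre nuclei Arc (23.95) and Junb (23.1) overlapped, as did Egr3 (19.8) and Dusp1 (19.7), and Npas4 (9.01) and Egr4 (8.38). Fos stood at 11.4 CPM per kb there, between those pairs, and Fosb again last at 1.06. The intervals treat reads as independent and leave out the spread over nuclei, so the order is a description. Homer1 reads cannot be divided here between the short, activity-induced form and the long forms. No source used here gives the strand setting of the counting, and the Junb and Dusp1 models overlap genes on the opposite strand (Prdx2, and Ergic1 and Gm8225), so that some of their reads may belong to those genes.

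Among the AP-1 genes, Fos differed most between the plates in D1-like nuclei. A single Oprm1-Cre D1-like nucleus had Fos, with 32 reads, which gave 0.586 CPM over the class. Among Slc32a1-Cre D1-like nuclei 14 (7.25%) had Fos, 641 reads in all, for 18.2 CPM (exact Poisson 95% interval 16.9 to 19.7). That interval treats reads as independent, and without 1 nucleus the level was 15.4 CPM, outside it. The nuclei with Fos there ran from 3.22 to 718 CPM with a median of 246.4. Of D2-like nuclei 1 of 23 on the Oprm1-Cre plate had Fos (25 reads, 6.22 CPM) and 15 (10.2%) on the Slc32a1-Cre plate (39.2 CPM, 2.05 to 1107 in nuclei with a read). Fosb, whose truncated product ΔFosB is known to build up in the striatum, was at 2.45 CPM among Oprm1-Cre and 7.06 CPM among Slc32a1-Cre D1-like nuclei. In D2-like nuclei Fosb had 0 of 4017958 reads on the Oprm1-Cre plate and 6.69 CPM on the Slc32a1-Cre plate, at least 8.95-fold lower with the floor of 3 reads over the class. Junb, which pairs with Fos proteins, was at 25.8 and 50.7 CPM for D1-like and 31.9 and 58.5 CPM for D2-like nuclei. No nucleus held more than 19.2% of the Junb reads in these classes.

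Of the EGR genes, Egr1 had the level that differed least between the plates in D1-like nuclei. It stood at 253.9 CPM in Oprm1-Cre and 237.7 CPM in Slc32a1-Cre D1-like nuclei, with medians over nuclei of 81.6 and 40.2 CPM and highest values of 1696 and 1672. In D2-like nuclei it was at 170 and 283.6 CPM. Egr3, a family member with the same DNA motif, was at 58.97 and 91.9 CPM for D1-like and 50.8 and 88.2 CPM for D2-like nuclei. Egr4 was the 1 member of the 10 past the size used below in the other direction, with 22.2 CPM in Oprm1-Cre and 12.3 CPM in Slc32a1-Cre D1-like nuclei. In D2-like nuclei Egr4 was at 17.2 and 25.8 CPM. One of the 11 undecided Oprm1-Cre nuclei held 62.1% of that set's 515 Egr3 reads, which put that set at 327.7 CPM.

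Npas4 had reads in a minority of nuclei, at levels that ranged widely. The median of D1-like nuclei with a read was 58.8 CPM for Oprm1-Cre and 94.5 CPM for Slc32a1-Cre. Among Oprm1-Cre D1-like nuclei 37 (12.5%) had a read and the class stood at 14.2 CPM, with 3.57 to 533 CPM in the nuclei with a read. Among Slc32a1-Cre D1-like nuclei 23 (11.9%) had a read, at 4.62 to 733 CPM, and the class stood at 22.3 CPM. The Slc32a1-Cre D2-like nuclei had the highest Npas4 level, 53.8 CPM, with 24 nuclei (16.3%) and a maximum of 1721 CPM. Of the 1584 reads there, 25.4% came from 1 nucleus, and 3 nuclei held at least 50% of them. The 23 Oprm1-Cre D2-like nuclei had 15 Npas4 reads in 2 nuclei, 3.73 CPM, of which 1 nucleus gave 13.

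The effector genes differed in breadth. Homer1 was at 439 CPM in Oprm1-Cre and 320.4 CPM in Slc32a1-Cre D1-like nuclei, at 298.2 and 320.7 CPM in D2-like ones, and its median nucleus held 163.8 to 343.4 CPM in those 4 sets. Arc, by contrast, was at 0 in the median nucleus of each set: 16.8% and 21.8% of D1-like nuclei had it, for 39.6 and 54.6 CPM. In D2-like nuclei Arc stood at 54.5 and 96.6 CPM, and the highest nucleus of all reached 2375 CPM on the Slc32a1-Cre plate. Dusp1 was at 20.4 CPM in Oprm1-Cre and 64.2 CPM in Slc32a1-Cre D1-like nuclei, with a read in 13.5% and 23.8% of nuclei. In D2-like nuclei Dusp1 was at 7.22 and 64.7 CPM.

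Between the plates, then, 6 of the 10 genes were lower in Oprm1-Cre than in Slc32a1-Cre D1-like nuclei by more than 0.5 on the scale of log2(CPM + 5), and 1 was higher. Of 11008 genes with at least 5 CPM on either plate, 12.2% were lower by as much and 14.8% higher. The differences were -2.06 for Fos, -1.45 for Dusp1, -0.85 for Junb, -0.69 for Fosb, -0.60 for Egr3 and -0.51 for Npas4, and Egr4 was at 0.65. Npas4 lay at the limit. It was inside it without possible doublets (-0.47) and without the nucleus with most Npas4 reads of each set (-0.29). With size factors (-0.49) and with the mean of CPM over nuclei (-0.42) it was inside as well. In the alternative without the nucleus with most reads, each gene lost its own such nucleus in each set. Egr4 was inside the limit without possible doublets (0.46). Arc (-0.42), Homer1 (0.45) and Egr1 (0.09, with a sign that turned per spike-in read, -0.08, and without possible doublets, -0.04) were inside that size, and Arc passed it per spike-in read (-0.58), with the mean of CPM (-0.51) and with the immediate early genes used in clustering (-0.60), as did Homer1 with at least 100000 reads (0.51). The median over the 10 was -0.55, against -0.00447 over all genes measured. In D2-like nuclei 8 of 10 were lower with Oprm1-Cre and none higher, where 29.9% of 10922 genes were lower and 23.1% higher. Npas4 (-2.75), Dusp1 (-2.51) and Fos (-1.98) were the furthest, Egr4 (-0.47) and Homer1 (-0.10) the 2 inside the size, and the median was -0.78 against -0.08. Egr1 (-0.72) came inside it with the mean of CPM over nuclei (-0.33), and Egr4 passed it in 4 of the alternatives (-0.50 to -0.79). When each gene lost its own nucleus with most reads, the median over all genes measured moved to -0.44 in D2-like nuclei. The D2-like comparison rests on 23 Oprm1-Cre nuclei, among which 1 nucleus gave all Fos reads.

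**Figure D2:**
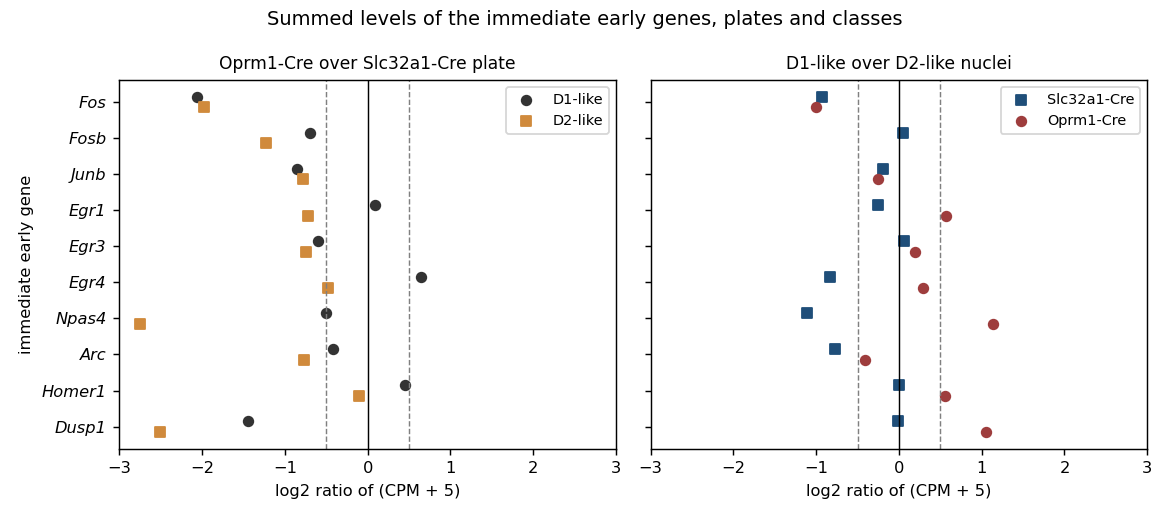
Log2 ratios of summed levels, as (CPM + 5), of each immediate early gene: left, the Oprm1-Cre over the Slc32a1-Cre plate in D1-like and D2-like nuclei; right, D1-like over D2-like nuclei of each plate, with Fosb of the Oprm1-Cre plate left out as under 5 CPM in both classes. Dashed lines mark 0.5 either way, and most points of the left panel lie left of the first, with Egr4 in D1-like nuclei right of the second.

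Other gene groups differed between the plates as well. Of 8 heat shock and chaperone genes, 5 were measured, and 2 were lower with Oprm1-Cre in D1-like nuclei (12.2% of all genes) and 4 in D2-like ones (29.9% of all genes). The 8 summed to 943 CPM against 1504 CPM in D1-like nuclei and to 809 against 1563 CPM in D2-like ones, with 1 to 3 of them at 0. Hspa5, a chaperone of the endoplasmic reticulum, stood at 397 against 799.8 CPM among the D1-like. Of 6 transcripts known to stay in the nucleus, such as Malat1 and Meg3, 4 were higher with Oprm1-Cre in D1-like nuclei (14.8% of all genes), and the 6 summed to 95575 against 71737 CPM. Within the Slc32a1-Cre plate, none of the 5 measured genes of either list differed by more than 0.5 between D1-like and D2-like nuclei. Their part in the plate difference of the immediate early genes was not tested.

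Within the Slc32a1-Cre plate, where both classes came from 1 plate, 4 of the 10 genes were lower in D1-like than in D2-like nuclei and none was higher. Of 10887 genes measured, 10.4% were lower by as much and 14.8% higher. Npas4 differed by -1.11, Fos by -0.93, Egr4 by -0.83 and Arc by -0.77. Homer1 (-0.00), Dusp1 (-0.01), Fosb (0.05) and Egr3 (0.06) were nearly level, with signs that turned under other settings. The shares of nuclei with a read were closer than the levels: Arc had a read in 18.2% of D1-like and 18.4% of D2-like nuclei after thinning, and Fos in 5.21% and 6.80%. The highest single nuclei stood further apart, at 1133 and 2375 CPM for Arc and at 718 and 1107 CPM for Fos. Without the nucleus with most reads of the gene in each class, Fos was at 15.4 and 26.2 CPM. Npas4 was then at 16.8 and 40.4 CPM and Arc at 45.1 and 79.2 CPM. On the Oprm1-Cre plate 9 genes could be compared, of which 1 was lower in D1-like nuclei (Fos, -1.01, 1 nucleus in each class) and 4 higher: Npas4 (1.14), Dusp1 (1.06), Egr1 (0.56) and Homer1 (0.55). The number higher was 2 per spike-in read, where Egr1 (0.38) and Homer1 (0.36) were inside the size. It was 3 with the mean of CPM (Egr1 0.11), without possible doublets (Egr1 0.42) and with at least 100000 reads (Homer1 0.49). When each gene lost its own nucleus with most reads it was 6. As reported, 19.1% of 11081 genes on the Oprm1-Cre plate were lower and 31.2% higher, and the D2-like side was 23 nuclei. When each gene lost its own nucleus with most reads, the median over all genes measured was 0.56, against 0.10 as reported.

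Interneuron-like nuclei had less Egr1, Egr3, Arc and Homer1 than D1-like nuclei of their own plate, and not less Dusp1. They fell into a set led by Trh and Th (14 nuclei, 11 of them Oprm1-Cre), a set led by Npy and Sst (10 nuclei) and a set led by Nxph1 and Kit (9 nuclei, all Slc32a1-Cre). Egr1 was at 25.9 CPM against 253.9 in the D1-like nuclei with Oprm1-Cre, and at 63.8 against 237.7 CPM with Slc32a1-Cre. Homer1 was at 209.8 against 439 CPM and at 36.4 against 320.4 CPM. Egr3 had 0 of 3283843 reads in 15 Oprm1-Cre interneuron-like nuclei, at least 64.5-fold under the D1-like level, and 75 reads in 1 of 18 Slc32a1-Cre ones. Arc had 0 reads in the 15, at least 43.4-fold under, and 16.8 against 54.6 CPM in the 18. Egr4 and Npas4 had at most 8 reads in either set of interneuron-like nuclei, and Fosb had 0 in both. Dusp1 went the other way, at 57.6 against 20.4 CPM and 91.7 against 64.2 CPM, with a read in 26.7% and 33.3% of thinned nuclei. On the Slc32a1-Cre plate the log2 ratio of Dusp1 was 0.48, inside the size of 0.5. Without its highest nucleus Dusp1 was at 37.6 and 62.9 CPM, against 18.7 and 59.9 CPM in D1-like nuclei without theirs.

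Over D1-like nuclei, 8 of the 10 genes were lower by more than 0.5 in Slc32a1-Cre interneuron-like nuclei and 1, Fos, was higher, where 35.7% of 11482 genes were lower and 29.8% higher. The median was -1.62, or -1.88 with genes at 0 placed at their bound, against -0.06 over all genes. On the Oprm1-Cre plate 6 of 8 measured were lower and 1, Dusp1, was higher, where 37.9% of 11548 genes were lower and 30.7% higher, and the median was -1.65 against -0.10. Fos in Slc32a1-Cre interneuron-like nuclei, 124.9 CPM, came from 3 of 18 nuclei. One nucleus of the Nxph1 and Kit set gave 81.3% of the 460 reads, and without it the level was 25.1 CPM. That nucleus held 1480 CPM of Fos, 475 of Egr1 and 483 of Dusp1, and 0 reads of Arc, Npas4 and Homer1. Other levels of these sets also leaned on 1 nucleus, and without it Egr1 was at 7.49 and 33.5 CPM, Homer1 at 134.4 and 18.2 CPM and Slc32a1-Cre Arc at 6.44 CPM. Against D1-like nuclei, interneuron-like nuclei had less of the SPN markers and less of most of these genes. Of the interneuron-like sets, the Oprm1-Cre one had more of the SPN markers, but less Egr1 and Arc, and more Homer1. The part of SPN RNA in the remaining level was not tested.

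The Slc32a1-Cre nuclei with much Fos mostly carried Arc and Npas4 as well. Of 30 SPN-like nuclei with Fos, 10 had 1 or 2 reads, 2 had 3 to 19 and 18 had 20 or more, a limit set with these values in view. The 18 were 9 D1-like and 9 D2-like nuclei. Arc had a read in 94.4% of the 18 against 17.8% of the other SPN-like nuclei of the plate, and Npas4 in 72.2% against 10.4%. Both Arc and Npas4 were present in 13 of the 18. Junb was in 72.2% against 36.98%, Egr4 in 66.7% against 19.5%, Dusp1 in 61.1% against 21.3% and Egr3 in 61.1% against 34.6%. Fosb was in 16.7% against 6.51%, Egr1 in 88.9% against 71.01% and Homer1 in 83.3% against 76.04%. Over all 30 nuclei with Fos the shares were lower for Arc (63.3%) and Npas4 (46.7%), against 17.8% and 10.4% of those without Fos. All these shares are of unthinned reads. The nucleus with most Fos was D2-like, with 1107 CPM of Fos beside 2370 of Egr1, 1090 of Arc, 937 of Junb, 702 of Npas4 and 490 of Egr4. One D1-like nucleus with 51 Fos reads, by contrast, had 10 Egr3 reads and no other member. On the Oprm1-Cre plate 2 SPN-like nuclei had Fos; both had Egr1 and Homer1, 1 had Npas4 (66 reads), and neither had Arc.

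**Figure D3:**
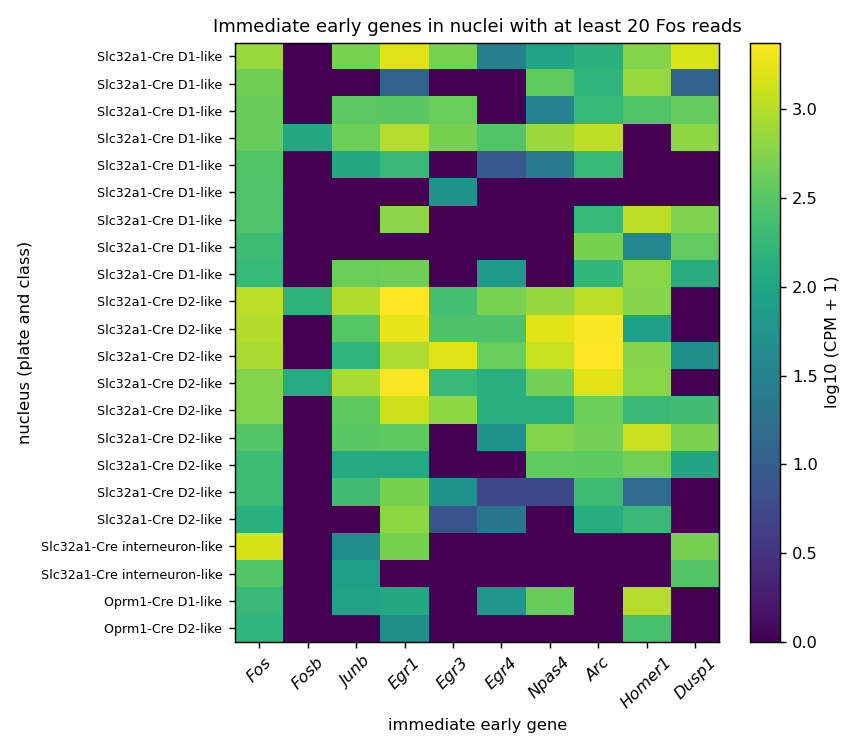
Level of each immediate early gene, as log10(CPM + 1), in the 22 nuclei with at least 20 Fos reads, 1 nucleus to a row, ordered by plate, class and Fos level. Arc is present in 17 of the 18 Slc32a1-Cre D1-like and D2-like nuclei, and absent from the 2 interneuron-like and the 2 Oprm1-Cre nuclei.

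Over all pairs, the genes were found together more often than their single shares gave. The expected number of nuclei with both genes of a pair is the product of the 2 shares times the number of nuclei. Summed over the 45 pairs, the observed number was 1.14 times the expected in Oprm1-Cre D1-like nuclei (970 against 849), 1.21 times in Slc32a1-Cre D1-like nuclei (763 against 631) and 1.35 times in Slc32a1-Cre D2-like nuclei (680 against 504). In the 23 Oprm1-Cre D2-like nuclei it was 1.13 times. Nuclei with more genes detected have more of any gene, and with the expected number taken within 3 groups of nuclei of equal size, by genes detected, the ratios were 1.10, 1.15 and 1.32 in the 3 larger sets. For the 40 further activity-regulated genes the same ratio over ungrouped nuclei was 1.07, 1.04 and 1.07. Their median gene had a read in 4.07% to 5.78% of nuclei, against 19.7% to 21.8% for the 10. Their most widely detected gene had a read in 88.1% to 99.3% of nuclei, against 65.99% to 84.1% for the 10. A ratio is held nearer to 1 the more nuclei have the gene, and widely detected genes weigh most in a sum over pairs. The ratios of the 40 and of the 10 are therefore not on the same footing. Nuclei of 1 plate share a library preparation, and no p-value was made from them.

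The highest ratios were those of Fos with Npas4 and Arc, and Homer1 pairs lay near 1 in D1-like nuclei. Homer1 had a read in 84.1% (Oprm1-Cre) and 76.04% (Slc32a1-Cre) of thinned D1-like nuclei, which by itself keeps its ratios from rising far above 1. Fos pairs and Homer1 pairs are therefore not on the same footing. In Slc32a1-Cre D2-like nuclei Fos and Npas4 were together in 8 nuclei, where 1.29 were expected, and Fos and Arc in 10, where 1.84 were expected. All 10 thinned nuclei with Fos there had Arc, which is 37.04% of those with Arc. In Slc32a1-Cre D1-like nuclei Fos and Npas4 were together in 5 nuclei (1.04 expected) and Fos and Arc in 8 (1.82 expected). Arc and Npas4 were paired above expectation in all 3 sets: 10 nuclei against 4.52 in Oprm1-Cre D1-like, 10 against 3.65 in Slc32a1-Cre D1-like and 10 against 3.49 in Slc32a1-Cre D2-like nuclei. Arc and Dusp1 were together in 10 Oprm1-Cre D1-like nuclei against 4.99 expected and in 16 Slc32a1-Cre D1-like nuclei against 7.66. Homer1 and Egr1, the widest genes, met at 1.03 times the expected number in Oprm1-Cre D1-like nuclei and 0.983 times in Slc32a1-Cre D2-like nuclei. A nucleus with Fos held 6.5 other members on average in Slc32a1-Cre D2-like nuclei, against 2.5 in nuclei without it, while medians of genes detected were 3241 and 3282. For Npas4 in the same set the averages were 4.58 and 2.44, and the medians of genes detected 3158 and 3284.

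**Figure D4:**
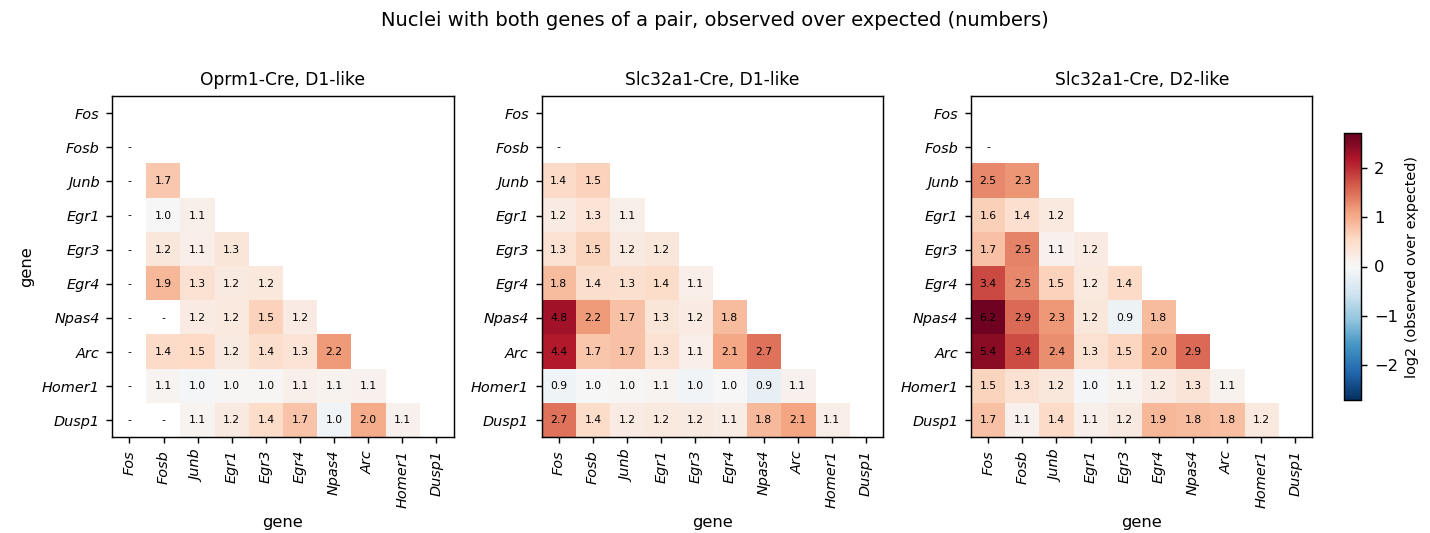
Observed over expected number of nuclei with both genes of a pair (number in each cell; colour is its log2), in thinned nuclei of the 3 larger sets; a dash marks pairs with under 1 nucleus expected. Fos with Npas4 and with Arc stand highest in the Slc32a1-Cre sets (6.19 and 5.44 in D2-like nuclei), and Homer1 pairs lie near 1 in D1-like nuclei of both plates. The wide detection of Homer1 keeps its ratios from rising far above 1.

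Counted per nucleus, the plates were close at 3 members and further apart at 5. At least 3 of the 10 genes had a read in 52.1% of thinned Oprm1-Cre SPN-like nuclei (exact Clopper-Pearson 95% interval 46.6 to 57.7) and in 50.4% of Slc32a1-Cre ones (45.1 to 55.7). At least 5 had a read in 9.15% (6.26 to 12.8) and 14.4% (10.9 to 18.5), and at least 6 in 4.27% (2.35 to 7.06) and 7.61% (5.07 to 10.9), with overlapping intervals at each of these numbers. The highest number was 8, in 1 Oprm1-Cre nucleus, and 9, in 6 Slc32a1-Cre nuclei, of which 4 were D2-like. No SPN-like nucleus had all 10. None of the genes was found in 3.96% and 5.35%. Interneuron-like nuclei reached 3 or more in 1 of 15 and 4 of 18, and at most 3 and 4.

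**Figure D5:**
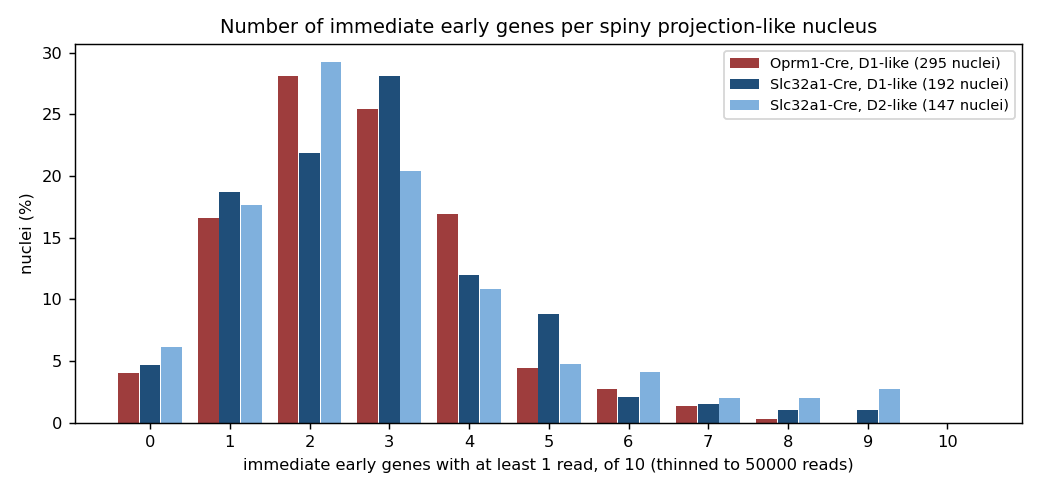
Percent of nuclei (y axis) by the number of the 10 immediate early genes with a read (x axis), after thinning to 50000 reads, in the 3 larger sets. The bars peak at 2 or 3 genes in each set, and those at 8 and 9 genes are nearly all Slc32a1-Cre nuclei.

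These counts moved with how many genes a nucleus showed. With nuclei split into 3 groups of equal size by genes detected, in the lowest group 33.9% of Oprm1-Cre and 38.1% of Slc32a1-Cre SPN-like nuclei had at least 3 members, and in the highest group 68.2% and 73.1%, all thinned to the same reads. One cluster found on both plates, led by Nefl, the light neurofilament gene, and Klhl13, stood highest, with 88.5% of 26 Oprm1-Cre and 90% of 30 Slc32a1-Cre nuclei at 3 members or more. Its median depth was 263725 reads. In that cluster Egr4 had a read in 57.7% and 33.3% of nuclei and Egr3 in 53.8% and 56.7%, while Npas4 had a read in 0 and 3.33% and Fos in 0 and 3.33%. A D2-like cluster of the Slc32a1-Cre plate, led by Adora2a and Penk, came next with 80% of 30 nuclei and a median depth of 249037 reads, and there Fos had a read in 16.7% and Egr3 in 76.7%. By place on the plate, the share with at least 3 members was 58.2% in columns 1 to 12 and 42.7% in columns 13 to 24 of the Slc32a1-Cre plate. On the Oprm1-Cre plate these columns had 50.3% and 53.9%. Rows A to H had 57.8% and rows I to P 46.7% on the Oprm1-Cre plate, and 53.1% and 47.8% on the Slc32a1-Cre plate.

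Further activity-regulated genes were lower and higher in equal number in D1-like nuclei. Of 40 such genes 25 were measured, and between the plates 5 were lower with Oprm1-Cre and 5 higher, with a median of -0.03. Over all genes 12.2% were lower and 14.8% higher there. In D2-like nuclei 13 were lower and 2 higher, with a median of -0.51, where 29.9% and 23.1% of all genes were. The 4 with the highest level were Scg2, a secretogranin, Plk2, a kinase of synaptic scaling, Rgs2, a regulator of G-protein signalling, and Arl4d, a small GTPase. In D1-like nuclei they stood at 962 and 1158 CPM (Scg2), 587 and 803 CPM (Plk2), 234.3 and 311.4 CPM (Rgs2) and 48.04 and 84.6 CPM (Arl4d) on the Oprm1-Cre and Slc32a1-Cre plates, of which only Arl4d (-0.76) was past the size of 0.5. Within the Slc32a1-Cre plate 7 of 25 were lower in D1-like than in D2-like nuclei and 1 higher, against 10.4% and 14.8% of all genes.

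Upstream of the 10 genes stand signalling enzymes and factors that answer to activity. Of 16 such genes, 3 were lower and none higher with Oprm1-Cre in D1-like nuclei, where 12.2% and 14.8% of all genes were, and none was lower and 1 higher in D1-like than in D2-like Slc32a1-Cre nuclei. Ppp3ca, the catalytic subunit of calcineurin, was at 1637 and 2126 CPM, Camk4 at 902 and 819 CPM and Camk2a at 273.7 and 232.7 CPM among Oprm1-Cre and Slc32a1-Cre D1-like nuclei. In interneuron-like nuclei 9 of 16 (Oprm1-Cre) and 10 of 15 (Slc32a1-Cre) measured were lower than in D1-like nuclei, against 37.9% and 35.7% of all genes. Among the partners of Homer1, Grm5, the metabotropic glutamate receptor it ties to the synapse, stood at 1457 and 1499.7 CPM among D1-like nuclei and had a read in 99.7% and 99.5% of them.

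The genes whose level went most with the number of members per nucleus were chosen by mean Spearman correlation over the Oprm1-Cre D1-like, Slc32a1-Cre D1-like and Slc32a1-Cre D2-like nuclei, thinned and each set taken alone. The first 8 of 7807 were Ppp1r1b (0.31), Ywhab (0.30), Rgs2 (0.27), Pcp4 (0.27), Cplx1 (0.26), Hpca (0.26), Nrgn (0.25) and Phactr1 (0.25), where the median gene was at 0.05. Ppp1r1b codes for DARPP-32, the phosphoprotein of dopamine signalling in spiny neurons. Its level went as well with the number of genes detected (0.47), as did that of Hpca (0.52), and Rgs2 did so least (0.11). These correlations are across nuclei that share a library, and they are descriptions.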

How the data were processed

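Single striatal nuclei of 2 genotypes, 1 plate each, were analysed. The authors deposited a table of read counts per gene and well for both plates; per the submitters' processing notes it was made with mm10, SAMtools and Seurat, and the counting step, strand setting and molecular identifiers are given in no source used here. The extraction and library protocol in the labels is one for bulk RNA. Reads without molecular identifiers are not independent molecules.

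Wells with at least 1000 genes and 20000 reads on genes were kept (355 and 381; depth 22727 to 581313 reads); 92 spike-ins stayed out of totals. Nuclei were clustered (2000 variable genes without the members, 30 principal components, 10 neighbours, Leiden at resolution 2; leidenalg 0.10.2, scikit-learn 1.9.0) and named from marker lists; D1-like (297 and 193) and D2-like (23 and 147) were set per nucleus, within 331 and 356 SPN-like nuclei, of which thinning to 50000 reads left 328 and 355. The 36 possible doublets, by markers of a second class, were kept and left out in an alternative. Levels are summed reads as CPM; 5 CPM was added before log2, and a gene counted as measured at 5 CPM in either side. Functions were tested on simulated data. Alternatives changed the pseudocount, size, scaling, thinning, filters, class rules and single nuclei. Named are all 10 members, the 4 highest genes of other lists and the 8 most like genes; 1 gene of these lists is not reported here. Members, lists and settings were chosen with earlier results of these data known. Genes at 0 are bounded by 3 reads. Gene lengths are from GENCODE vM21.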

Additional observations from a re-analysis of the deposited data

Results flagged for a closer look

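Npas4 differed between D1-like and D2-like nuclei in opposite directions on the 2 plates, with a log2 ratio of D1-like over D2-like of -1.11 for Slc32a1-Cre and 1.14 for Oprm1-Cre. The difference between the plates was not tested, and the Oprm1-Cre D2-like value rests on 15 reads in 2 of 23 nuclei.

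Wells left out of the comparisons held reads of 4 of the 10 genes on the Oprm1-Cre plate. Egr1 had 13 reads in 5 of the 29 wells left out, above the 3 reads that a count of 0 allows, and 8 of the 13 stood in 1 well. Homer1 had 3 reads, and Egr3 and Egr4 1 read each. The 3 wells left out on the Slc32a1-Cre plate held none.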

How the results depend on the processing

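Of 92 recomputed counts, shares and co-detection ratios, 74 stayed near the reported value, and of 400 recomputed log2 ratios of single genes 390 moved by less than 0.5. No ratio past 0.5 changed sign, and 6 ratios nearer to 0 did so in 14 recomputations: Egr1 between the plates in D1-like nuclei (0.09; -0.04 without possible doublets, -0.08 per spike-in read), Egr4 between Oprm1-Cre classes (0.29; -0.09 with the mean of CPM), and Homer1, Dusp1, Fosb and Egr3 between Slc32a1-Cre classes, where all reported values are within 0.06 of 0. The count of genes lower in D1-like than D2-like Oprm1-Cre nuclei was 1 as reported. It was 2 with the immediate early genes used in clustering, with the mean of CPM over nuclei and per spike-in read. It was 0 without the nucleus with most reads, which was chosen anew for each gene in each set. With a size of 1 on the log2 scale, the genes lower with Oprm1-Cre were 2 for D1-like and 4 for D2-like nuclei, and those lower in D1-like Slc32a1-Cre nuclei 1. Per spike-in read the median of all genes between the plates was -0.16 in D1-like nuclei. When each gene lost its own nucleus with most reads, the median of all genes was 0.56 for D1-like over D2-like Oprm1-Cre nuclei. Between the plates in D2-like nuclei it was then -0.44. Members lower with Oprm1-Cre in D1-like nuclei numbered 7 per spike-in read and with the immediate early genes used in clustering, and 5 without possible doublets, without the nucleus with most reads and with size factors. The share of SPN-like nuclei with at least 3 members was 62.5% (Oprm1-Cre) and 59.3% (Slc32a1-Cre) without thinning, 41.99% and 37.9% thinned to 20000 reads, 42.9% and 43.3% at 5 or more reads, and 28.4% and 29.3% without Homer1. Without Homer1 co-detection was 1.26 in Oprm1-Cre D1-like, 1.38 in Slc32a1-Cre D1-like and 1.51 in Slc32a1-Cre D2-like nuclei. The ratio within 3 groups by genes detected was added after the data were seen. No paired analysis was possible because well numbers pair no nuclei and each genotype is 1 plate with no test. The number of nuclei with a read limits Fos and Fosb on the Oprm1-Cre plate (2 and 13 SPN-like nuclei), and the number of nuclei limits the 23 D2-like ones, where Fos, Arc, Egr4, Npas4 and Dusp1 levels fell by over 1.5 times without 1 nucleus each. Fosb among Oprm1-Cre D1-like nuclei was at 1.62 CPM without 1 nucleus.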
